A study of Homo sapiens with 6 samples.

Results

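The enzymes described here are those that make the pyrimidine nucleotides of RNA and the thymidylate of DNA. They were chosen by name and followed through every library of the expression table: CAD, DHODH and UMPS of de novo uridylate synthesis, the kinase CMPK1, the cytidylate synthetases CTPS1 and CTPS2, thymidylate synthase TYMS, the salvage kinase UCK2 and the phosphorylase UPP1. All 9 genes were found among the 18806 symbols of the table, and all 9 were among the 10911 genes that averaged at least 1 TPM, the deposited unit of transcript abundance scaled for length and library total, and were tested.

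The libraries were poly(A)-selected RNA of the human cell line Mono-Mac-6, established from a monocytic leukaemia and positive for the MLL-AF9 fusion gene. All cells came from 1 Cas9 clone of that line, were transduced with a lentivirus carrying a guide RNA, selected with blasticidin at 10 µg/ml and with hygromycin B (200 µg/ml), and collected at 8 to 10 days from transduction. The groups were the guide sgMETTL1.3, the guide sgMETTL1.6, both aimed at METTL1, and the control guide sgNS, with 2 libraries each and 6 in all. The deposited column names also carry the letters EV for every library, which the labels do not explain. METTL1 is the catalytic subunit of a transfer RNA methyltransferase, and the series asks how it affects gene expression in this leukaemia. Because the control cells carry Cas9, the fusion gene and a lentiviral guide too, every difference below is one between guides in the same clone, and nothing in the labels says that the 2 libraries of a group came from separate cultures, so p-values measure the spread between these libraries.

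Pyrimidine synthesis builds the ring first and attaches it to ribose phosphate afterwards: CAD starts the ring in the cytosol, DHODH oxidises it in the inner mitochondrial membrane, and UMPS produces uridine monophosphate. Kinases then raise uridine monophosphate to the triphosphate, from which CTP synthetases make CTP, while TYMS methylates deoxyuridylate with a one-carbon unit from folate. Salvage enzymes return uridine and cytidine to the pool, and phosphorylases and reductases break them down. The route is best known in blood cancers as a target of antimetabolites, which act on TYMS, and of DHODH inhibitors.

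METTL1 itself had 18.29 and 16.56 TPM in the libraries labelled sgMETTL1.3, 11.15 and 11.69 TPM in the sgMETTL1.6 libraries, and 15.38 and 13.89 TPM in the sgNS libraries. Its mRNA was thus above both sgNS libraries under the label sgMETTL1.3 and below both under sgMETTL1.6. The log2 change was 0.24 under the label sgMETTL1.3 (limma adjusted p = 0.0111) and -0.33 for sgMETTL1.6 (limma adjusted p = 0.00167). Cas9 cuts can disrupt a protein while its mRNA persists, so this level checks neither the edit nor the label. Because METTL1 mRNA rose rather than fell under the label sgMETTL1.3, those samples are named by their label. METTL1-guide libraries means the 4 libraries labelled with either METTL1 guide. The monocytic leukaemia markers SPI1 (263 to 336 TPM), CD33 (48.8 to 51.2 TPM) and LYZ (9206 to 11419 TPM) were expressed in all 6 libraries, while CD14 and CSF1R stayed under 1 TPM in each. Of 8 tested genes of that 10-gene marker list, 1 rose (SPI1, 0.20) and 5 fell for the mean of both guides. By the same limma threshold, an adjusted p under 0.05, 32.6% of all tested genes rose and 26.8% fell. The markers had a median log2 change of -0.23, beside 0.02 for all tested genes. Those that fell were FCGR1A (-0.84), ITGAM (-0.64), CD68 (-0.37), HOXA9 (-0.32) and LYZ (-0.14), surface, lysosomal and transcription factor genes of monocytic leukaemia cells. SPI1 and LYZ were not called for each guide alone. SPI1 changed by 0.32 under the label sgMETTL1.3 (limma adjusted p = 2.81e-05) and 0.09 with sgMETTL1.6 (limma adjusted p = 0.0935). LYZ changed by -0.04 under that label (limma adjusted p = 0.18) and -0.24 with sgMETTL1.6 (limma adjusted p = 1.14e-05). The part of these marker changes in the levels of the enzymes below was not tested. Of 9 markers of other cell types, HBB, CD3E, MS4A1 and PF4 were at 0 in every library. Without PECAM1, which monocytes also make, the 9 markers summed to 0.84 and 0.99 TPM in the libraries labelled sgMETTL1.3, 0.60 and 0.76 TPM in the sgMETTL1.6 libraries, and 0.68 and 0.86 TPM in the sgNS libraries. PECAM1 had 100.05 and 98.54 TPM in the libraries labelled sgMETTL1.3, 71.03 and 68.59 TPM in the sgMETTL1.6 libraries, and 70.66 and 73.78 TPM in the sgNS libraries. Over genes averaging at least 100 TPM, the libraries of a group differed by a median of 2.44% under the label sgMETTL1.3, 3.15% for sgMETTL1.6 and 2.42% for sgNS. Read totals cannot be had from TPM, so depth is unknown, and a fall in a bulk level cannot be told apart from fewer cells that carry the transcript.

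In the libraries labelled with a METTL1 guide, the enzyme that completes uridylate synthesis, UMPS, and the enzyme that makes CTP, CTPS1, were higher than in control libraries under either label. TYMS was slightly higher under either label, a call that depended on the scaling. CAD and DHODH were higher only where the libraries carried the label sgMETTL1.3, a difference between guides that was itself tested and called, and UPP1 was lower with sgMETTL1.6. UCK2 and CTPS2 did not pass the test in any comparison. Set against sgNS, the mean of both guides was called higher for 4 of 9 enzymes (UMPS, CTPS1, CAD and TYMS) and lower for 0. A call was an adjusted p under 0.05 by limma on log2(TPM + 1), with Benjamini-Hochberg adjustment over all 10911 genes, and at an unadjusted p under 0.05 the counts were 5 higher and 0 lower. The same rule called 59.4% of all tested genes, 32.6% higher and 26.8% lower, so a call is common in these data. All 4 METTL1-guide libraries were above both sgNS libraries for 3 of 9 enzymes and below both for 0, where 32.9% of tested genes were above and 27.3% below. The median log2 change was 0.14 over the 9 enzymes and 0.02 over all tested genes. Fold changes on the log2(TPM + 1) scale understate the change of low genes such as UPP1 and CTPS2.

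**Figure D1:**
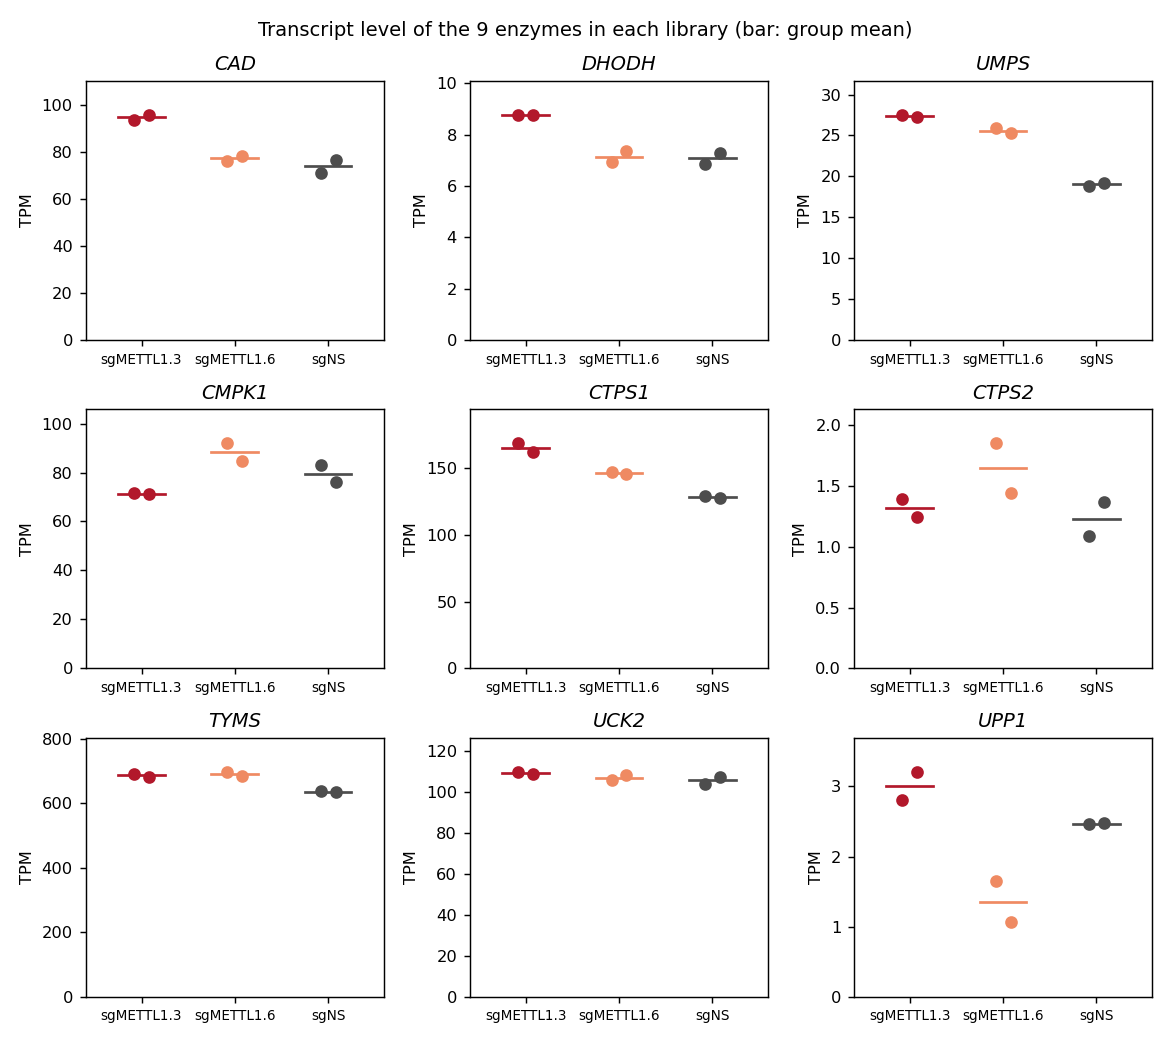
Level in TPM (vertical axis of each panel, from 0) of the 9 enzymes in each library, by guide; points are libraries and bars are group means. UMPS, CTPS1 and TYMS have all 4 METTL1-guide libraries above both sgNS libraries, CAD and DHODH stand apart only under the label sgMETTL1.3, and UPP1 is lowest with sgMETTL1.6.

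The promoter windows of the 3 enzymes of uridylate synthesis are printed here because these enzymes share a pathway but differed in how they responded to the guides. Each is the 250 bases before the transcription start in the RefSeq annotation of GRCh38.p14, 5′ to 3′ on the gene's own strand, and capitals mark a match to one of the motifs searched.
UMPS (chr3:124730202-124730451, plus strand): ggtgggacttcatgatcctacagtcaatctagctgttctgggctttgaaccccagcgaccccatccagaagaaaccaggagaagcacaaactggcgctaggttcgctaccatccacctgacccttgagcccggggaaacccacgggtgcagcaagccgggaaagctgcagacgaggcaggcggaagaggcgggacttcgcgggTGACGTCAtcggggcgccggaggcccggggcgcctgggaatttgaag
DHODH (chr16:72008494-72008743, plus strand): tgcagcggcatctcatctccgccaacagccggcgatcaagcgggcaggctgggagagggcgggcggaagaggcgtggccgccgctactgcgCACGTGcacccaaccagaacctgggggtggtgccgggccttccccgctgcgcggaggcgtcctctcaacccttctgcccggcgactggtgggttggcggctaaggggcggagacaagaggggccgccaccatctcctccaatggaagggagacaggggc
CAD (chr2:27217119-27217368, plus strand): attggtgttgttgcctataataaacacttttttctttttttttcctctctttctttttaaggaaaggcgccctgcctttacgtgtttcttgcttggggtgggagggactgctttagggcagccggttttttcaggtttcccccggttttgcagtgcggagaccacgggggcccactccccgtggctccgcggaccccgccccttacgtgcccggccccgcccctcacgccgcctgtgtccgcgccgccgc

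Short motifs, 4 in number, were searched on both strands of the windows of all 9 enzymes and of 35116 windows in all, each reaching from 250 bases before to 50 after a start. They were the E-box CACGTG, bound by MYC and related factors, and the cyclic AMP response element TGACGTCA. The others were the composite element TGATGNAA, bound by ATF4 with CEBP partners, and TTTNGCGC, a form of the E2F motif. The E-box was present in 7.26% of all windows and, among the 9 enzymes, only in that of DHODH (chr16:72008585-72008590). Sequence outside the windows was not searched, so an E-box there would be missed. The cyclic AMP response element was present in 1.85% of all windows and, among the 9 enzymes, only in that of UMPS (chr3:124730405-124730412), beginning 47 bases before the start. The composite element was in 3.62% of all windows and TTTNGCGC in 1.79%, and neither was in a window of the 9 enzymes. Other forms of these motifs were not searched, so a window without a match may hold another form. No matches overlapped each other. GENCODE 29 places the outermost start of UMPS and of DHODH inside the stretches printed, so part of each may be transcribed. A match describes letters in a window and is no measure of binding.

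UMPS (ENSG00000114491.13, chr3:124730366-124749273 on the plus strand of GRCh38) encodes the bifunctional enzyme that joins orotate to ribose phosphate and decarboxylates the product to uridine monophosphate. It had 27.53 and 27.23 TPM in the libraries labelled sgMETTL1.3, 25.93 and 25.27 TPM in the sgMETTL1.6 libraries, and 18.81 and 19.22 TPM in the sgNS libraries. All 4 METTL1-guide libraries were above both control libraries, and the spread within each pair was small beside that gap. Over both guides UMPS rose by 0.46 on the log2 scale (SE 0.0449, limma adjusted p = 1.91e-06), or 39.3% in mean TPM, and 96% of tested genes had a smaller log2 change. The rise was 0.50 under the label sgMETTL1.3 (limma adjusted p = 3.21e-06) and 0.41 for sgMETTL1.6 (limma adjusted p = 2.76e-05). The guides were not called different from each other, with a log2 difference of -0.09 for sgMETTL1.6 minus sgMETTL1.3 (95% interval -0.21 to 0.02, limma adjusted p = 0.203).

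CAD (ENSG00000084774.13, chr2:27217390-27243943, plus strand) encodes the fused carbamoyl phosphate synthetase, aspartate transcarbamylase and dihydroorotase that open the pathway. Its level was 93.72 and 95.87 TPM in the libraries labelled sgMETTL1.3, 76.33 and 78.26 TPM in the sgMETTL1.6 libraries, and 71.28 and 76.65 TPM in the sgNS libraries. The libraries labelled sgMETTL1.3 lay above all others, while the sgMETTL1.6 and sgNS libraries overlapped. CAD rose by 0.35 on the log2 scale under the label sgMETTL1.3 (SE 0.0446, limma adjusted p = 1.91e-05), and the change with sgMETTL1.6 was 0.06 (95% interval -0.03 to 0.16, limma adjusted p = 0.256). The difference of sgMETTL1.6 from the libraries labelled sgMETTL1.3 was -0.29 (limma adjusted p = 0.000864). With the guides averaged, CAD changed by 0.21 (limma adjusted p = 0.000439), a value that stands between unequal guides.

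DHODH (ENSG00000102967.11, chr16:72008588-72027664, plus strand) encodes dihydroorotate dehydrogenase, which passes the electrons it takes to ubiquinone of the respiratory chain. It had 8.77 and 8.76 TPM in the libraries labelled sgMETTL1.3, 6.94 and 7.35 TPM in the sgMETTL1.6 libraries, and 6.84 and 7.30 TPM in the sgNS libraries. As with CAD, the libraries labelled sgMETTL1.3 were highest and the other 4 overlapped. The log2 change was 0.28 under the label sgMETTL1.3 (SE 0.0724, limma adjusted p = 0.00532), which missed the threshold without sgNS replicate 1 (0.235, limma adjusted p = 0.0518). For sgMETTL1.6 it was 0.01 (95% interval -0.14 to 0.17, limma adjusted p = 0.892). The log2 difference of sgMETTL1.6 from the libraries labelled sgMETTL1.3 was -0.26 (limma adjusted p = 0.0219), and this call was lost in 6 of 15 alternative analyses, all of which gave a negative value. Among them were the fits without sgMETTL1.6 replicate 1 (-0.226, limma adjusted p = 0.111), sgMETTL1.3 replicate 1 (limma adjusted p = 0.0909) and sgMETTL1.3 replicate 2 (limma adjusted p = 0.0881). Over both guides DHODH had a log2 change of 0.14 that missed the threshold (95% interval 0.01 to 0.28, limma adjusted p = 0.063). It passed after quantile normalization (0.182, limma adjusted p = 0.0199) and without the variance trend (limma adjusted p = 0.0265).

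The proportions among the enzymes of uridylate synthesis followed from these values. CAD exceeded UMPS in TPM by a factor of 3.40 and 3.52 in the libraries labelled sgMETTL1.3, 2.94 and 3.10 in the sgMETTL1.6 libraries, and 3.79 and 3.99 in the sgNS libraries. Every METTL1-guide library was below both controls in this ratio, and the sgMETTL1.6 libraries were lowest. The ratio of CAD to DHODH was 10.7 and 10.9 in the libraries labelled sgMETTL1.3, 11.0 and 10.6 in the sgMETTL1.6 libraries, and 10.4 and 10.5 in the sgNS libraries. That ratio kept within a narrow band while both genes were higher under the label sgMETTL1.3.

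CMPK1 (ENSG00000162368.13, chr1:47333797-47378839, plus strand) encodes the kinase that turns uridine and cytidine monophosphates into diphosphates. Its level was 71.66 and 71.19 TPM in the libraries labelled sgMETTL1.3, 91.95 and 84.87 TPM in the sgMETTL1.6 libraries, and 82.95 and 76.02 TPM in the sgNS libraries. The guides stood on opposite sides of the controls, with the libraries labelled sgMETTL1.3 lowest and the sgMETTL1.6 libraries highest. The log2 change was -0.15 under the label sgMETTL1.3 (SE 0.0511, limma adjusted p = 0.0218) and 0.15 for sgMETTL1.6 (limma adjusted p = 0.0243). The difference of sgMETTL1.6 from the libraries labelled sgMETTL1.3 was 0.30 (limma adjusted p = 0.00162), which exceeded the log2 difference of 97.8% of tested genes. This difference was called in all 15 alternative analyses, whereas the fall under the label sgMETTL1.3 was called in 10 and the rise with sgMETTL1.6 in 11. The fall missed the threshold without either of its own libraries (limma adjusted p = 0.0648 and 0.0808), and the rise without sgMETTL1.6 replicate 1 (0.095, limma adjusted p = 0.182). Without sgNS replicate 1 the fall under the label sgMETTL1.3 was -0.089 (limma adjusted p = 0.243), and without sgNS replicate 2 the rise with sgMETTL1.6 was 0.09 (limma adjusted p = 0.248). CMPK1 averaged over the guides had a log2 change of 0.0005 (limma adjusted p = 0.993), an average of opposite values.

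CTPS1 (ENSG00000171793.14, chr1:40979335-41012565, plus strand) encodes the CTP synthetase that proliferating lymphocytes depend on, which aminates UTP with nitrogen from glutamine. It had 168.71 and 161.84 TPM in the libraries labelled sgMETTL1.3, 147.23 and 145.85 TPM in the sgMETTL1.6 libraries, and 129.53 and 127.60 TPM in the sgNS libraries. The 3 groups did not overlap, with the libraries labelled sgMETTL1.3 highest and the controls lowest. Over both guides CTPS1 rose by 0.27 on the log2 scale (SE 0.0318, limma adjusted p = 8.82e-06), or 21.3% in mean TPM. The rise was 0.36 under the label sgMETTL1.3 (limma adjusted p = 3.04e-06) and 0.19 with sgMETTL1.6 (limma adjusted p = 0.000915). The difference of sgMETTL1.6 from the libraries labelled sgMETTL1.3 was -0.17 (limma adjusted p = 0.00621), and it missed the threshold only without sgMETTL1.3 replicate 1 (-0.142, limma adjusted p = 0.068).

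CTPS2 (ENSG00000047230.14, chrX:16588003-16712936, minus strand), the paralogous CTP synthetase, was expressed at 1.39 and 1.24 TPM in the libraries labelled sgMETTL1.3, 1.85 and 1.44 TPM in the sgMETTL1.6 libraries, and 1.09 and 1.37 TPM in the sgNS libraries. The libraries labelled sgMETTL1.3 overlapped with the controls, whereas both sgMETTL1.6 libraries were above them. The log2 change was 0.06 under the label sgMETTL1.3 (limma adjusted p = 0.715), 0.24 for sgMETTL1.6 (95% interval -0.02 to 0.51, limma adjusted p = 0.114) and 0.15 over both guides (limma adjusted p = 0.242). TPM is a per-length unit, so the paralogs can be set side by side. CTPS2 made up 0.817% and 0.760% of the summed CTPS1 and CTPS2 TPM in the libraries labelled sgMETTL1.3, 1.24% and 0.978% in the sgMETTL1.6 libraries, and 0.834% and 1.06% in the sgNS libraries. The libraries labelled sgMETTL1.3 were below both controls and the sgMETTL1.6 libraries were not, so the mean of 0.949% ± 0.215 in METTL1-guide libraries (SD, n = 4), beside 0.948% ± 0.161 in sgNS libraries (SD, n = 2), averages groups that lie apart. An exact two-sided permutation test gave p = 1, but its 15 splits allow no p below 0.0667, so it could not have reached the threshold. Nearly all CTP synthetase mRNA was thus CTPS1 in every library, and the rise of CTPS1 was the rise of the pair: their sum was 170 and 163 TPM in the libraries labelled sgMETTL1.3, 149 and 147 TPM in the sgMETTL1.6 libraries, and 131 and 129 TPM in the sgNS libraries.

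TYMS (ENSG00000176890.15, chr18:657604-673578, plus strand) encodes thymidylate synthase, the target of fluoropyrimidines. It had 692.02 and 682.56 TPM in the libraries labelled sgMETTL1.3, 697.68 and 684.81 TPM in the sgMETTL1.6 libraries, and 636.41 and 634.88 TPM in the sgNS libraries. Although the 4 METTL1-guide libraries were all above the controls, the step was small: 0.12 on the log2 scale over both guides (SE 0.024, limma adjusted p = 0.000993), or 8.44% in mean TPM. It was 0.11 under the label sgMETTL1.3 (limma adjusted p = 0.00355) and 0.12 for sgMETTL1.6 (limma adjusted p = 0.0028), and the guides differed by 0.01 (95% interval -0.05 to 0.07, limma adjusted p = 0.854). The call depended on how libraries were scaled: after quantile normalization the change over both guides was 0.04 (limma adjusted p = 0.123), with 0.055 under the label sgMETTL1.3 (limma adjusted p = 0.0723) and 0.025 for sgMETTL1.6 (limma adjusted p = 0.416). Under the label sgMETTL1.3 it was also lost without the variance trend (limma adjusted p = 0.0527). TYMS overlaps TYMSOS and ENOSF1 on the other strand. The library kit keeps strand, but whether the counting used it is not stated in the sources used here, so reads of these genes may be shared.

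UCK2 (ENSG00000143179.15, chr1:165827531-165911618, plus strand) encodes the main kinase that returns uridine and cytidine from outside the cell to the nucleotide pool. It had 109.81 and 108.83 TPM in the libraries labelled sgMETTL1.3, 105.54 and 108.30 TPM in the sgMETTL1.6 libraries, and 103.96 and 107.44 TPM in the sgNS libraries. Its highest and lowest libraries differed by a factor of 1.06, the narrowest range among the 9 enzymes. The log2 change was 0.03 over both guides (95% interval -0.04 to 0.10, limma adjusted p = 0.423), 0.05 under the label sgMETTL1.3 (limma adjusted p = 0.298) and 0.02 for sgMETTL1.6 (limma adjusted p = 0.746). UCK2 overlaps TMCO1 and an antisense gene, so the same limit on strand applies.

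UPP1 (ENSG00000183696.13, chr7:48088628-48108733, plus strand) encodes uridine phosphorylase, which splits uridine into uracil and ribose 1-phosphate and so opens its breakdown. It had 2.81 and 3.21 TPM in the libraries labelled sgMETTL1.3, 1.65 and 1.06 TPM in the sgMETTL1.6 libraries, and 2.46 and 2.48 TPM in the sgNS libraries. Both sgMETTL1.6 libraries were below every other, and both libraries labelled sgMETTL1.3 were above the controls. UPP1 fell by 0.57 on the log2 scale with sgMETTL1.6 (SE 0.124, limma adjusted p = 0.00188), and mean TPM fell by 45.1%, and the change under the label sgMETTL1.3 was 0.21 (limma adjusted p = 0.168). The difference of sgMETTL1.6 from the libraries labelled sgMETTL1.3 was -0.78 (limma adjusted p = 0.00113), and only 0.156% of tested genes had a smaller one. Over both guides the change was -0.18 (95% interval -0.41 to 0.05, limma adjusted p = 0.163), and it was -0.273 without sgMETTL1.6 replicate 1 (limma adjusted p = 0.027) and -0.091 without sgMETTL1.6 replicate 2 (limma adjusted p = 0.442). The other uridine phosphorylase, UPP2, was at 0 in all libraries but sgNS replicate 1, which had 0.03 TPM.

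Counted by guide, 5 of 9 enzymes were called higher (CAD, DHODH, UMPS, CTPS1 and TYMS) and 1 lower (CMPK1) under the label sgMETTL1.3, where 58.5% of tested genes were called, 34.3% higher and 24.2% lower. The libraries did not overlap with sgNS for 7 enzymes above and 1 below, where 46.2% of tested genes were above and 33.7% below. With sgMETTL1.6, 4 were called higher (UMPS, CMPK1, CTPS1 and TYMS) and 1 lower (UPP1), where 51% of tested genes were called, 25.7% higher and 25.3% lower. The sgMETTL1.6 libraries lay above both sgNS libraries for 5 enzymes and below both for 1, where 37.8% of tested genes were above and 37% below. These comparisons share the sgNS libraries, so likeness between them is partly built in. Between guides, which uses no control library for the difference, sgMETTL1.6 was called higher than the libraries labelled sgMETTL1.3 for 1 of 9 enzymes (CMPK1) and lower for 4 (CAD, DHODH, CTPS1 and UPP1). The background in that comparison was 7.23% of tested genes higher and 15.8% lower. The guides were called different at 5 of 9 enzymes, against 23% of tested genes. Their libraries did not overlap for 2 enzymes above and 6 below in sgMETTL1.6, where 19.5% of tested genes were above and 43% below. The split of all genes called between guides depended on the scaling: 31.4% of the calls were higher in sgMETTL1.6 on TPM as deposited, 54.8% after quantile normalization, 49.1% with ribosomal protein genes left out and 58.9% after median-ratio scaling. The differences for CAD, CMPK1, CTPS1, DHODH and UPP1 kept their sign under each of these scalings, though DHODH missed the threshold after quantile normalization (-0.21, limma adjusted p = 0.0578) and median-ratio scaling (-0.219, limma adjusted p = 0.0513). PECAM1, a marker of endothelial cells and monocytes, differed between the guides by -0.50 on the log2 scale. Of 8 tested monocytic leukaemia markers, 3 were called lower in sgMETTL1.6, SPI1 (-0.23), LYZ (-0.20) and CD68 (-0.18). HOXA9 was called higher (0.16), and 4 were not called. The part of these markers in the differences between the guides was not tested.

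**Figure D2:**
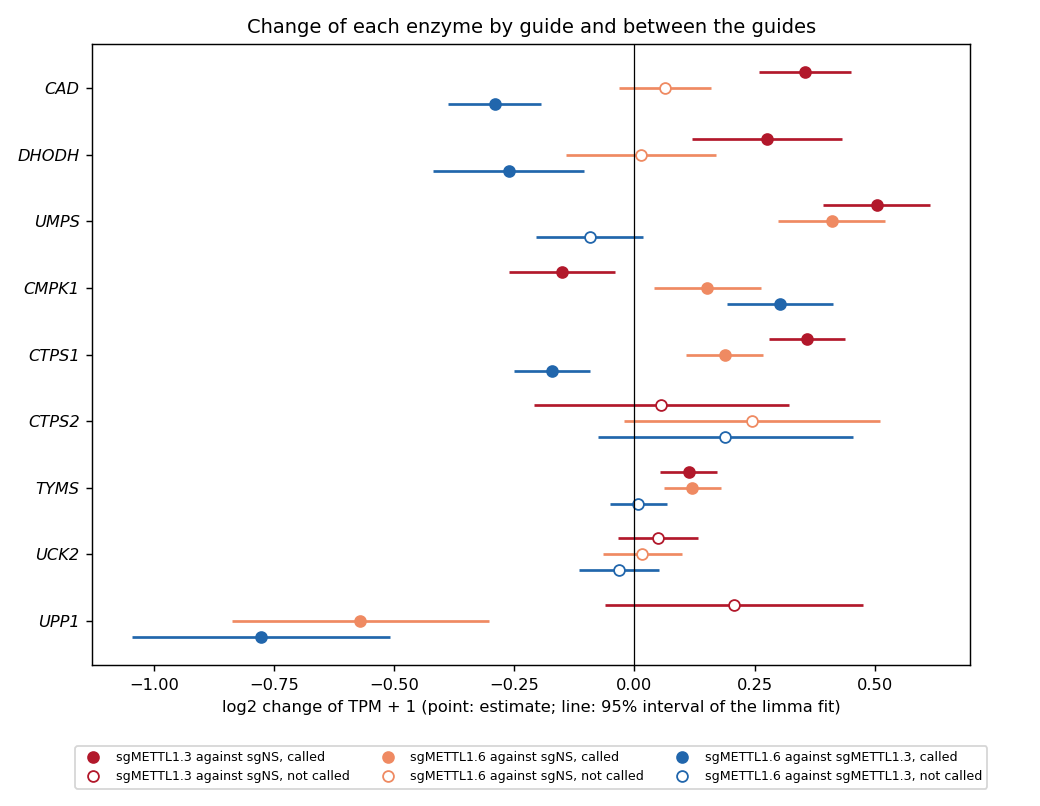
Log2 change of TPM + 1 (horizontal axis) of each enzyme for each guide over sgNS and for sgMETTL1.6 over the libraries labelled sgMETTL1.3; points are limma estimates, lines their 95% intervals, and filled points pass an adjusted p under 0.05. UMPS lies to the right of 0 for either guide, CMPK1 lies on opposite sides, and UPP1 lies furthest left in both comparisons of sgMETTL1.6.

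Each enzyme can be placed in the distribution of all genes tested by the share of them with a smaller log2 change over both guides. That share was 96% for UMPS, 85.6% for CTPS1, 78.9% for CAD, 71% for CTPS2, 70.3% for DHODH, 66% for TYMS, 51.6% for UCK2, 46.2% for CMPK1 and 21.3% for UPP1. Of the 9 enzymes, UMPS had the largest log2 change over both guides and UPP1 the largest difference between guides.

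**Figure D3:**
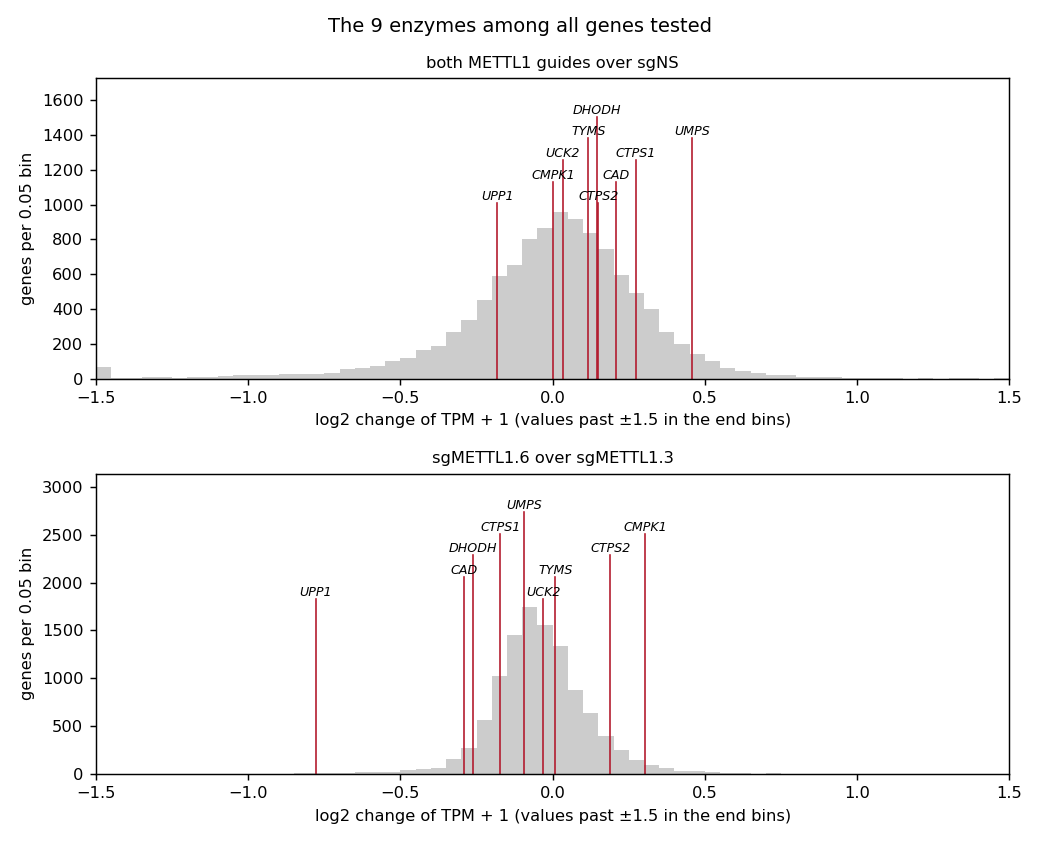
Number of tested genes (vertical axis) by log2 change of TPM + 1 (horizontal axis, bins of 0.05), for both METTL1 guides over sgNS above and sgMETTL1.6 over sgMETTL1.3 below; red lines mark the 9 enzymes. UMPS lies in the upper tail of the top panel at 0.46, and UPP1 in the far lower tail of the bottom panel at -0.78.

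The enzymes of one pathway were expressed at widely different mRNA levels. TYMS was the highest, with a mean of 671 TPM over the 6 libraries (634.88 to 697.68 TPM), above 98.3% of tested genes. CTPS1 followed at 147 TPM, UCK2 at 107 TPM, CAD at 82.0 TPM and CMPK1 at 79.8 TPM. UMPS averaged 24 TPM, DHODH 7.66 TPM, UPP1 2.28 TPM and CTPS2 1.40 TPM. The library ranges of CAD and CMPK1 overlapped, with CAD above in 3 of 6 libraries, and so did those of UPP1 and CTPS2, with UPP1 above in 4 of 6. Other neighbours in this order did not overlap. Without TYMS, the other 8 enzymes summed to 484 and 478 TPM in the libraries labelled sgMETTL1.3, 457 and 452 TPM in the sgMETTL1.6 libraries, and 417 and 418 TPM in the sgNS libraries, a sum that CTPS1, UCK2, CAD and CMPK1 dominate.

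Of 57 other genes of pyrimidine metabolism and its control, in 5 lists, 50 were tested, and over both guides 20 were called higher and 13 lower, near the shares of 32.6% and 26.8% over all tested genes. Under the label sgMETTL1.3 the counts were 21 higher and 11 lower, and with sgMETTL1.6 they were 15 higher and 14 lower. The shares over all tested genes were 34.3% and 24.2% under that label, and 25.7% and 25.3% with sgMETTL1.6. Between guides, 7.23% of all tested genes were called higher in sgMETTL1.6 and 15.8% lower. Of the 50 genes, sgMETTL1.6 was higher than the libraries labelled sgMETTL1.3 for 3 and lower for 7. This balance turned with the scaling, to 6 higher and 3 lower after median-ratio scaling, 5 and 4 with ribosomal protein genes left out, and 4 and 3 after quantile normalization. Their median log2 change over both guides was 0.03, beside 0.02 for all tested genes. Without sgNS replicate 2 the counts lower were 8 over both guides and 7 for sgMETTL1.6. Between guides, 1 gene was higher without sgMETTL1.3 replicate 1 or sgMETTL1.6 replicate 1, and 2 were lower without sgMETTL1.3 replicate 2.

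Nucleoside diphosphate kinases, which make the triphosphates, had 4 of 7 genes called higher over both guides and 0 lower. The shares over all tested genes were 32.6% and 26.8%. At an unadjusted p under 0.05 by limma, the only tool run, 0 were lower too. NME1 had 711.72 and 698.47 TPM in the libraries labelled sgMETTL1.3, 704.83 and 711.06 TPM in the sgMETTL1.6 libraries, and 520.66 and 522.58 TPM in the sgNS libraries. The METTL1-guide libraries all lay well above the controls, with a log2 change of 0.44 (SE 0.0241, limma adjusted p = 7.96e-09). NME4, a mitochondrial member, rose by 0.47 to 194 TPM in METTL1-guide libraries, against 140 TPM in control libraries. NME2 rose by 0.09 (limma adjusted p = 0.00886). NME1 and NME2 are near-identical neighbours with a read-through transcript, so how reads were split between them is uncertain. NME3 was lower in sgMETTL1.6 than in the libraries labelled sgMETTL1.3 by a log2 difference of -0.25 (limma adjusted p = 0.0403).

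In salvage and uptake, 9 of 13 genes were tested. Over both guides 3 rose and 2 fell, beside 32.6% and 26.8% of all tested genes. SLC29A1, the equilibrative transporter that brings nucleosides and cytarabine into the cell, had 107.80 and 110.69 TPM in the libraries labelled sgMETTL1.3, 92.98 and 99.69 TPM in the sgMETTL1.6 libraries, and 76.25 and 77.76 TPM in the sgNS libraries. Its groups were ordered as for CTPS1, without overlap. The log2 change was 0.41 over both guides (limma adjusted p = 1.03e-06), and sgMETTL1.6 differed from the libraries labelled sgMETTL1.3 by -0.18 (limma adjusted p = 0.0113). UCK1, the other uridine-cytidine kinase, rose by 0.29 to 36.5 TPM in METTL1-guide libraries, against 29.7 TPM in control libraries (limma adjusted p = 6e-05), while UCK2 did not pass the test. TK2, the mitochondrial thymidine kinase, fell to 6.80 TPM in METTL1-guide libraries, against 9.41 TPM in control libraries, a log2 change of -0.42. DCK, which activates deoxycytidine and cytarabine, fell under the label sgMETTL1.3 (-0.32, limma adjusted p = 9.78e-05), was at -0.11 with sgMETTL1.6 (limma adjusted p = 0.0861), and differed between sgMETTL1.6 and the libraries labelled sgMETTL1.3 by 0.21 (limma adjusted p = 0.00887).

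Deoxynucleotide and thymidylate supply had 12 of 13 genes tested. Over both guides 5 were higher and 3 lower, beside 32.6% and 26.8% of all tested genes. SHMT2, which makes the mitochondrial one-carbon units, had 140.11 and 148.43 TPM in the libraries labelled sgMETTL1.3, 140.91 and 148.40 TPM in the sgMETTL1.6 libraries, and 404.10 and 404.94 TPM in the sgNS libraries. It fell by 1.48 on the log2 scale (SE 0.0339, limma adjusted p = 9.37e-13). TYMS, which uses one-carbon units from folate, was higher by 0.12, a call that depended on the scaling. DCTPP1, a pyrophosphatase that clears noncanonical deoxycytidine nucleotides, had 90.37 and 93.51 TPM in the libraries labelled sgMETTL1.3, 82.87 and 85.88 TPM in the sgMETTL1.6 libraries, and 56.50 and 57.62 TPM in the sgNS libraries. It rose by 0.62 (limma adjusted p = 1.47e-08), and DTYMK, the thymidylate kinase that acts on the product of TYMS, rose by 0.25 (limma adjusted p = 0.000625). SAMHD1, which hydrolyses deoxynucleotide triphosphates, had 151.20 and 146.05 TPM in the libraries labelled sgMETTL1.3, 108.50 and 108.37 TPM in the sgMETTL1.6 libraries, and 131.54 and 135.97 TPM in the sgNS libraries. It moved in opposite directions with the guides, by 0.15 under the label sgMETTL1.3 (limma adjusted p = 0.00386) and -0.30 for sgMETTL1.6 (limma adjusted p = 2.66e-05), a difference of -0.45 (limma adjusted p = 6.3e-06).

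Pyrimidine breakdown and nucleotidase genes numbered 11 tested of 13. Over both guides 2 were higher and 4 lower, beside 32.6% and 26.8% of all tested genes. NT5C3A, a nucleotidase that strips phosphate from pyrimidine monophosphates, fell by 0.41 to 50.2 TPM in METTL1-guide libraries, against 67.2 TPM in control libraries (limma adjusted p = 2.92e-06). UPB1, which carries out the last step of uracil breakdown, had 1.23 and 0.97 TPM in the libraries labelled sgMETTL1.3, 2.08 and 1.92 TPM in the sgMETTL1.6 libraries, and 3.54 and 3.24 TPM in the sgNS libraries. Both guides were below the controls, by -1.07 under the label sgMETTL1.3 and -0.55 for sgMETTL1.6 on the log2 scale, and sgMETTL1.6 differed from the libraries labelled sgMETTL1.3 by 0.52 (limma adjusted p = 0.00551). NUDT1, which removes oxidised nucleotides, rose by 0.31 over both guides (limma adjusted p = 0.000236). TYMP, thymidine phosphorylase, differed between sgMETTL1.6 and the libraries labelled sgMETTL1.3 by -0.43 (limma adjusted p = 0.00558), in the same direction as UPP1, with 8.97 and 10.20 TPM in the sgMETTL1.6 libraries and 11.97 and 14.60 TPM in the libraries labelled sgMETTL1.3. DPYD, the first enzyme of uracil breakdown, had a log2 difference of -0.20 (limma adjusted p = 0.0349).

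Regulators and users of the pathway had 11 genes tested. Over both guides 6 were higher and 4 lower, beside 32.6% and 26.8% of all tested genes. MYC, a transcription factor known to bind the CAD promoter, had 320.04 and 316.92 TPM in the libraries labelled sgMETTL1.3, 309.11 and 311.06 TPM in the sgMETTL1.6 libraries, and 380.79 and 386.55 TPM in the sgNS libraries. It fell by 0.29 on the log2 scale over both guides (limma adjusted p = 1.01e-06). CAD was called higher under the label sgMETTL1.3 (0.35) but not with sgMETTL1.6 (0.06, limma adjusted p = 0.256). The part of MYC in the level of CAD was not tested. UAP1, which consumes UTP to make UDP-N-acetylglucosamine, rose by 0.45 (limma adjusted p = 1.99e-07), and PCYT2, which consumes CTP in phosphatidylethanolamine synthesis, rose by 0.43 (limma adjusted p = 2.27e-06). Between guides, sgMETTL1.6 minus sgMETTL1.3 was 0.17 for RPS6KB1, a kinase known to phosphorylate CAD protein, and -0.24 for PCYT1A, which consumes CTP in phosphatidylcholine synthesis.

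**Figure D4:**
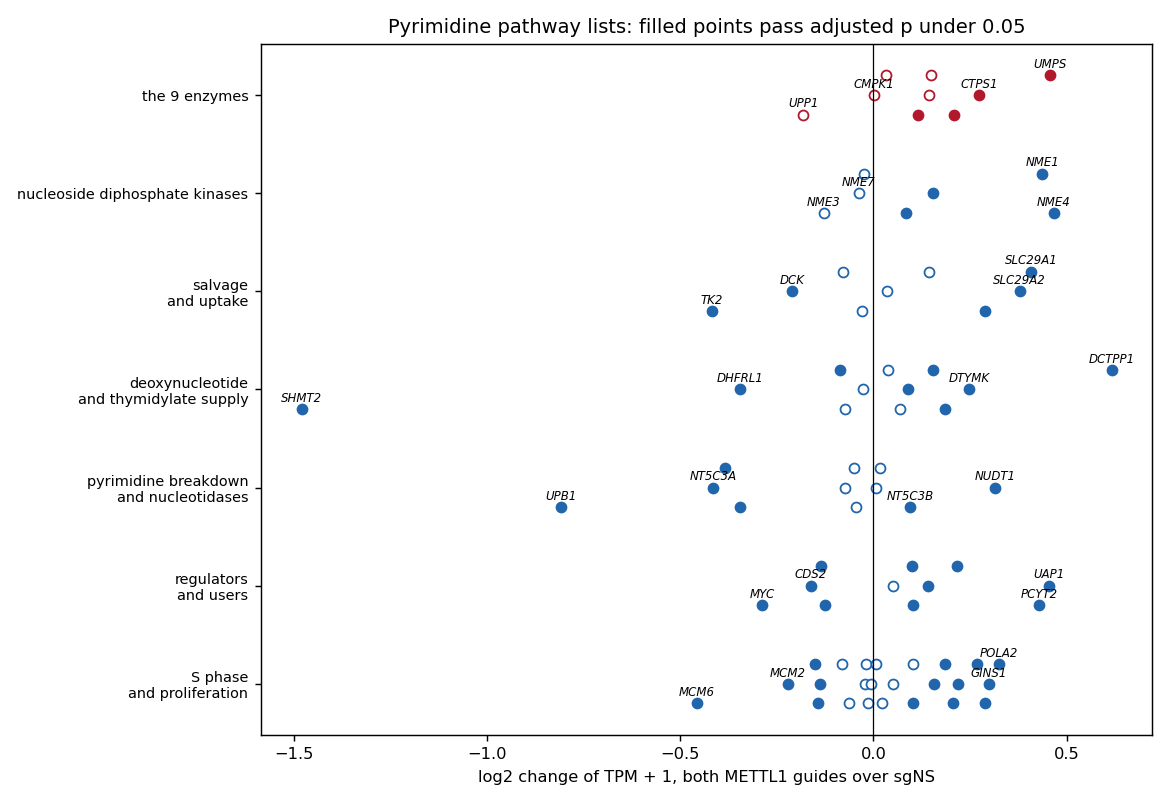
Log2 change of TPM + 1 over both METTL1 guides against sgNS (horizontal axis) of every tested gene of the 9 enzymes and of each list around them; filled points pass an adjusted p under 0.05, and the vertical offset within a list has no meaning. Each list except the nucleoside diphosphate kinases and the 9 enzymes holds called genes on both sides of 0, and SHMT2 lies furthest left at -1.48.

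Because TYMS is made mainly in S phase, the 9 enzymes were read beside genes of DNA replication and proliferation. Their 24 genes summed to 3406 and 3360 TPM in the libraries labelled sgMETTL1.3, 3331 and 3272 TPM in the sgMETTL1.6 libraries, and 3299 and 3310 TPM in the sgNS libraries. These sums overlapped between METTL1-guide and control libraries. Over both guides 9 of 24 genes were called higher and 5 lower, near the shares of 32.6% and 26.8% over all tested genes, and their median log2 change was 0.01. Without sgNS replicate 2, 3 were called lower. MKI67, a marker of cycling cells, had 149 TPM in METTL1-guide libraries, against 121 TPM in control libraries (log2 change 0.29, limma adjusted p = 1.91e-05), and FEN1, the flap endonuclease of lagging-strand synthesis, rose by 0.27. MCM6, a subunit of the replicative helicase, fell by 0.46 to 242 TPM in METTL1-guide libraries, against 332 TPM in control libraries (limma adjusted p = 8.42e-08). Between guides, sgMETTL1.6 minus sgMETTL1.3 was 0.18 for CCNE2 and 0.14 for UHRF1, and -0.15 for MCM2, -0.16 for MKI67 and -0.20 for POLA2. The part of cell-cycle state in the levels of the 9 enzymes was not tested.

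The genes whose library pattern was most like UMPS and most like UPP1 were found by the root mean square difference, over the 6 libraries, of log2(TPM + 1) centred on the sgNS mean, among genes averaging at least 5 TPM. Nearest to UMPS, of 9281 genes, were PARP1 (0.0181), FASTKD5 (0.0189) and ETS2 (0.0195). PARP1, the DNA damage sensor, had 271.66 and 262.53 TPM in the libraries labelled sgMETTL1.3, 257.24 and 254.87 TPM in the sgMETTL1.6 libraries, and 187.70 and 192.01 TPM in the sgNS libraries. Nearest to UPP1, of 9282 genes, were ME1 (0.0553), FTH1 (0.141) and SLC37A2 (0.166). That scale understates the change of a low gene such as UPP1, and no other scale was tried for this search. ME1, the cytosolic malic enzyme, had 12.88 and 14.18 TPM in the libraries labelled sgMETTL1.3, 8.60 and 7.28 TPM in the sgMETTL1.6 libraries, and 12.13 and 11.99 TPM in the sgNS libraries. FTH1, the ferritin heavy chain, showed the same order, highest under the label sgMETTL1.3 and lowest with sgMETTL1.6.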

How the data were processed

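Per the submitters' processing notes, the authors estimated expression with RSEM 1.2.31 on GRCh38, and the deposited table holds TPM, transcript abundances that the authors' tool scales for length and to one fixed total per library. The aligner, annotation and strand setting: not given in the sources used here. TPM is relative, so a change in very abundant transcripts shifts all others. Symbols were used as deposited, with DHFR2 under its older symbol. Values became log2(TPM + 1), and genes averaging under 1 TPM were left out. limma 3.58.1 in R 4.3.3 (lmFit, contrasts.fit, eBayes with trend) was fitted once to 6 libraries in 3 groups, with 3 residual and 9.84 prior degrees of freedom, after being tested on simulated data. Benjamini-Hochberg adjustment ran over all tested genes. Intervals are 95%. Pseudocount, filter, scaling, trend, a replicate block and each library left out were varied. The members and lists were chosen with earlier results of these data known. Named from each list were the 3 genes with the lowest p over both guides and any called between guides, apart from a result not reported here. Gene positions are from GENCODE 29 and promoter sequences from RefSeq (GRCh38.p14).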

Additional observations from a re-analysis of the deposited data

Results flagged for a closer look

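The guides, both aimed at METTL1, differed from each other in 5 of the 9 enzymes by the limma test of the difference itself, on the log2(TPM + 1) scale and as sgMETTL1.6 minus the libraries labelled sgMETTL1.3. The differences were -0.29 for CAD, -0.26 for DHODH, -0.17 for CTPS1, 0.30 for CMPK1 and -0.78 for UPP1. The same test called 23% of all tested genes different between the guides. The DHODH difference missed the threshold after quantile normalization and after median-ratio scaling. In the same comparison METTL1 mRNA differed by -0.57 (limma adjusted p = 0.00018).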

How the results depend on the processing

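Of 36 changes of single enzymes, 4 comparisons by 9 enzymes, 532 values under alternatives were computed. The calls of UMPS and CTPS1 against sgNS, of CAD over both guides, under the label sgMETTL1.3 and between guides, and of CMPK1 between guides held under every alternative run, and those of UPP1 for sgMETTL1.6 and between guides held wherever UPP1 was tested (log2 -0.851 to -0.235 and -1.123 to -0.335). Signs turned only where no call was made. CMPK1 over both guides was -0.02 after quantile normalization, -0.03 without ribosomal protein genes and -0.016 after median-ratio scaling. Between guides, TYMS was -0.03 after quantile normalization, and UCK2 was 0.013, 0.001 and 0.016 under those same scalings in that order. With each library left out in turn, CMPK1 over both guides ranged from -0.062 to 0.063, CTPS2 under the label sgMETTL1.3 from -0.035 to 0.147, DHODH for sgMETTL1.6 from -0.028 to 0.055, UCK2 for sgMETTL1.6 from -0.007 to 0.04, TYMS between guides from -0.005 to 0.022, and the difference in CTPS2 share from -0.113 to 0.115 percentage points. Where 1 library remained in a group, it was assumed to vary like the others. Enzymes called lower under the label sgMETTL1.3 numbered 0 with no filter and with no variance trend, and 0 to 1 over the left-out libraries, since CMPK1 is the gene concerned. For sgMETTL1.6 the count was 0 with a mean of at least 5 TPM, a filter that removes UPP1 and CTPS2 from the test. Over both guides it was 0 to 1, and between guides 2 to 4, over the left-out libraries. Among all genes, 789 were higher and 1721 lower in sgMETTL1.6 than in the libraries labelled sgMETTL1.3; with no filter these counts were 332 and 691, and with no variance trend 459 and 950. The count lower was 803 after quantile normalization, 967 without ribosomal protein genes and 781 after median-ratio scaling, where the count higher was 972, 932 and 1118. Leaving out libraries gave 430 to 819 higher and 784 to 1650 lower, with 476 and 791 without sgMETTL1.3 replicate 1, 430 and 784 without sgMETTL1.3 replicate 2, and 497 and 942 without sgMETTL1.6 replicate 1. The cause of these shifts was not tested. TYMS under the label sgMETTL1.3 also missed the threshold without ribosomal protein genes (0.065, limma adjusted p = 0.058). Libraries with the same replicate number were not shown to be paired: the differences of replicate 1 from replicate 2 correlated across genes by 0.15, -0.005 and 0.21 for the 3 pairs of groups. With the replicate block, 5 enzymes were called higher and 0 lower over both guides, DHODH being added (0.14, limma adjusted p = 0.0475), and 1103 genes were higher and 2512 lower between guides. No scaling moved the median of all genes by more than 0.1 on the log2 scale. Depth is unknown, which limits most what can be said of UPP1 and CTPS2.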
